A study of Mus musculus with 32 samples.

Results

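The replication-dependent histone genes were the 65 genes, of 38201 in both gene tables, whose symbols begin with Hist1h, Hist2h, Hist3h or Hist4h. They comprised 6 H1, 20 H2A, 19 H2B, 7 H3 and 13 H4 genes. Of these, 51 lie on chromosome 13, 10 on chromosome 3, 3 on chromosome 11 and 1 on chromosome 6, and 2 (Hist1h2aj and Hist3h2bb-ps) are annotated as pseudogenes. They were measured in P19 cells, a mouse embryonal carcinoma line, 36 h after transfection with custom esiRNAs (enzymatically prepared pools of short interfering RNAs) by lipofection. The 7 knockdown groups received esiRNAs against SRSF1, SRSF2, SRSF3, SRSF4, SRSF5, SRSF6 or SRSF7, the SR proteins of the study, and the control group received esiRNA against GFP, a protein that these cells do not make. RNA came from whole cells or from the cytoplasm, was selected for poly(A) tails and was sequenced in 2 replicates, A and B, per group and fraction, 32 libraries in all. The paper calls the replicates biological, but no label says whether A and B were separate cultures, so p-values measure the spread between these libraries. In such bulk samples, fewer cells that make an mRNA and less of it per cell cannot be told apart. The study asked which mRNAs need each SR protein to reach the cytoplasm.

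Replication-dependent histone mRNAs supply the histones that package newly made DNA, and cells make them in S phase. Most carry no intron and no poly(A) tail. Their 3′ end is formed just after a short stem-loop, which the stem-loop binding protein SLBP holds, with the help of the U7 snRNP. Some of these genes can also yield a polyadenylated transcript, which runs past the stem-loop or is spliced to an exon further downstream. SR proteins are splicing factors that also bind mRNA for export, and SRSF3 and SRSF7 are known from work on an intronless H2A mRNA to promote its export. Poly(A) selection therefore sets what of these genes could be seen here, namely tailed transcripts and whatever untailed RNA passed through it.

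The 3′ ends in the GENCODE vM1 transcripts (build mm9) show which members carry the stem-loop and which also carry a signal for polyadenylation. The stem-loop was searched as GGNNNTTTNNANNNCC on the transcript strand, with 6 paired bases around a loop of 4, in the first 100 bases after the stop codon. It was found in 37 of 47 members with an annotated sequence after the stop, at 22 to 59 bases past it, and in 9 of 19863 other genes (0.0453%). The signals AATAAA and ATTAAA were searched in the last 40 bases of a transcript and were found in 16 of the 47 members against 77.9% of other genes. The 11 members with both, the 26 with the stem-loop alone, the 5 with the signal alone (Hist1h2bc, Hist1h2bq, Hist1h2br, Hist1h4a and Hist2h2be) and the 5 with neither are referred to below by these names. The first set below shows the stem-loops of the members that the results turn on, with the stem and loop in capitals. A match describes the letters and is no measured site.
Hist1h4i, stem-loop: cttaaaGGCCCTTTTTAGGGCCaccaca
Hist3h2ba, stem-loop: cccaaaGGCTCTTTTCAGAGCCaccttc
Hist1h1c, stem-loop: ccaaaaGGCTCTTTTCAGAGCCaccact
Hist3h2a, stem-loop: accaaaGGCTCTTTTCAGAGCCacccac
Hist1h4d, stem-loop without a signal: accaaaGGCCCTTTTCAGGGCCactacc

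Over the 37 members 6 different stem-loop sequences were found. The one shown for Hist1h1c, Hist3h2ba and Hist3h2a was carried by 4 H1, 10 H2A, 7 H2B and 2 H3 members, the one for Hist1h4d by 6 H4 members, and that of Hist1h4i by 2 H4 members, itself and Hist2h4. The next set shows polyadenylation signals, in capitals, of Hist3h2ba, Hist1h1c and Hist3h2a, the most abundant members. It also shows those of Hist1h2bc and Hist1h2bp, which have a downstream exon. The search found no signal for Hist2h2bb, and the signals of Hist1h2bq, Hist1h2br and Hist1h4i are not shown. Hist1h2bp has an unspliced transcript with the stem-loop and a spliced one that skips it and ends at a signal. Hist1h2bc has no stem-loop in its annotated transcript.
Hist3h2ba, signal: ataatggtattAATAAAtttggttcaat
Hist1h1c, signal: tgtatgcttctAATAAAaagcgtttagt
Hist3h2a, signal: gtgtctacaaaATTAAAggaagttccaa
Hist1h2bc, signal in the downstream exon: gatgtatatatAATAAAtgtcatgtaaa
Hist1h2bp, unspliced transcript, stem-loop: cacaaaGGCTCTTTTCAGAGCCacccac
Hist1h2bp, spliced transcript, signal: tacattataaaAATAAAggtttcaatct

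The members were scarce in these libraries. Their summed reads made up 11.5 to 39.2 RPM (reads per 1000000 reads of a library in the gene table) in whole cells (median 19.7) and 17.2 to 61.0 RPM in the cytoplasm (median 31.6). The 12 histone genes listed as replication-independent, among them H2afz, H3f3a and H3f3b, summed to 1608 to 2040 RPM in whole cells and 1872 to 2418 RPM in the cytoplasm. In whole cells 27 members were above 0 in every library and Hist2h2ab and Hist1h2aa were at 0 in all 16. In the cytoplasm 50 members were above 0 in every library. After scaling of the libraries to a common level (TMM, used for all scaled reads below), 55 members averaged under 10 reads per whole-cell library and 44 per cytoplasmic library. Accordingly, 17 members passed the filter on low values in whole cells and 48 in the cytoplasm, including all 17. The filter keeps a gene that is high in enough libraries, so counts over the members that passed are a description of those members.

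Most of the signal came from a few members. Per length, in the authors' pooled FPKM for the GFP libraries, Hist3h2ba (H2B; chr11:58948911-58949532, plus strand, mm10) was highest, at 5.42 in whole cells and 11.97 in the cytoplasm. Hist3h2a (H2A; chr11:58954685-58956674, plus strand) had 2.34 and 3.98, and Hist1h1c (a linker histone H1; chr13:23738807-23740366, plus strand) had 1.91 and 2.95. Hist1h2bc (H2B) had 1.45 and 1.68, Hist2h2bb (H2B) had 0.846 and 2.81, and Hist1h4d (H4) had 0.988 and 2.26. Hist1h1e (H1) had 0.582 and 1.02, Hist2h3c1, the H3 member with most reads, had 0.629 and 0.150, and Hist4h4 (H4; chr6:136801553-136804431, minus strand) had 0.554 and 0.106. By comparison, the replication-independent H2afz and H3f3b had 1047 and 550 in whole cells and 1764 and 564 in the cytoplasm. Hist3h2a, Hist3h2ba and Hist1h1c, all with stem-loop and signal, held 44.0% of the summed whole-cell reads and 49.3% of the cytoplasmic reads. The 11 members with stem-loop and signal together held 52.2% and 55.6%, the 26 with the stem-loop alone 14.8% and 21.0%, the 5 with the signal alone 9.20% and 6.61%, and the 18 with no annotated sequence after the stop 20.1% and 12.7%.

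**Figure D1:**
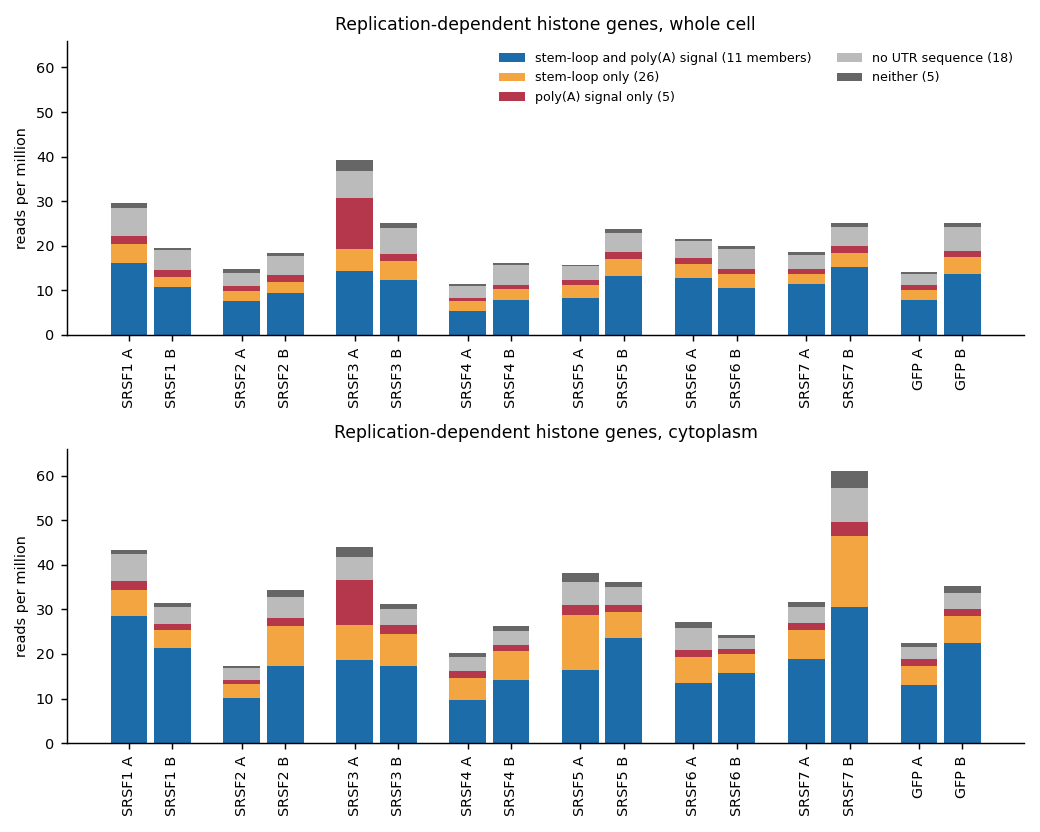
Summed reads of the 65 members in RPM (vertical axis) in each library, whole cell above and cytoplasm below. Bars are split by the 3′ end annotated for the members; the whole-cell SRSF3 A bar reaches 39.2 through a large share from the signal-only members, and the cytoplasmic SRSF7 B bar reaches 61.0 with 16.1 from the stem-loop-only members.

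Several values of the libraries bear on these genes. Each library held 26934687 to 48585781 reads in the gene tables. The targeted SR protein mRNA kept 48.7% to 68.1% of its GFP level in whole cells and 37.3% to 76.6% in the cytoplasm, and Srsf3 in the SRSF3 whole-cell libraries was 7038 in A and 4435 in B against 8703 and 8153 in GFP. All 10 markers of pluripotent embryonal carcinoma cells, such as Pou5f1, were detected and summed to 2045 to 3290 RPM in whole cells. The 6 nuclear RNAs found in the tables, led by Malat1 in whole cells, summed to 732 to 1240 RPM there and to 29.7 to 97.6 RPM in the cytoplasm, with the highest cytoplasmic value in SRSF3 A. Hist3h2a and Hist2h3c1 share exon bins with neighbouring genes (Trim17 for the first, Gm20634 and Hist2h2aa1 for the second), Hist1h2be shares them with Gm11398, and Hist1h2br and Hist1h2bq are near-identical copies, so the reads of these members are uncertain. The sources used here do not state whether counting used the strand, and Hist2h2bb lies over Gm20628, whose reads cannot be told apart from its own.

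The summed level of the members differed between replicates of one group about as much as between groups. In whole cells the GFP libraries held 430 scaled reads in A and 756 in B. The lowest whole-cell library was SRSF4 A with 368, and the highest were SRSF3 A with 1268 and SRSF1 A with 933. In the cytoplasm the GFP libraries held 747 and 1240, the lowest library was SRSF2 A with 611, and the highest were SRSF7 B with 2239 and SRSF1 A with 1535. In whole cells, both SRSF3 libraries (1268 and 761) lay above both GFP libraries, SRSF3 B barely so, whereas those of the other 6 knockdowns overlapped with GFP. The mean log2 difference from GFP was largest for SRSF3 in whole cells, at 0.77, and for SRSF7 in the cytoplasm, at 0.75, where the pooled SD between replicates was 0.38 and 0.44. Without the 7 members with an annotated intron, whole-cell SRSF3 A held 800 scaled reads and lay below SRSF1 A with 833. By class, SRSF7 B was the highest cytoplasmic library for H1 (507), H2A (686), H3 (138) and H4 (327), and SRSF3 A for H2B (640). Leaving out SRSF3 A reduced the SRSF3 difference to 0.36 and leaving out SRSF7 B reduced the SRSF7 difference to 0.15, and an exact permutation test of 2 libraries against 2 cannot go below a two-sided p of 0.333.

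In whole cells, Hist1h4i (H4; chr13:22040816-22041352, minus strand) rose after SRSF3 depletion, and in limma without the replicate letter no other member passed the test against GFP in any knockdown. On exon-bin reads edgeR and DESeq2 also called Hist1h2bc, which is described further down. Hist1h4i had 41.8 scaled reads in SRSF3 A and 13.1 in B against 5.6 and 3.8 in GFP. The 4 libraries did not overlap, although SRSF1 A with 15.3 lay above SRSF3 B. The log2 change was 2.13 ± 0.60 (SE), with an adjusted p of 0.041 in limma over all genes. The call rested on few reads: it was lost without SRSF3 A (1.32, adjusted p = 0.384), without GFP A (2.35, 0.119) and without GFP B (1.89, 0.177). In all, 1 of 17 tested members was called, against 11.5% of all genes tested in that comparison.

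Libraries with the same replicate letter deviated together, and a limma fit with the letter as a block called more members. After SRSF3 depletion 4 of 17 members rose in whole cells and none fell, against 33.2% of all genes called in that comparison. They were Hist1h4i (2.13, adjusted p = 0.0042), Hist1h2bc (2.03, 0.017), Hist2h2bb (1.88, 0.019) and Hist1h1c (1.08, 0.029). Hist1h1c had 168 and 142 scaled reads in SRSF3 and 43.7 and 121 in GFP, so that both SRSF3 libraries were above both GFP libraries, and its change without GFP A was 0.34 (adjusted p = 0.776, limma without the block). Hist2h2bb had 56.8 and 14.96 against 4.5 and 11.4 in GFP, and its change without SRSF3 A was 0.95 (adjusted p = 0.533, limma without the block).

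After SRSF1 depletion, the block fit called 2 members in each fraction. Hist3h2ba, the most abundant member per length, had 149 and 90.6 scaled reads in whole cells against 75.1 and 70.0 in GFP, a log2 change of 0.67 (adjusted p = 0.032 in limma with the block, 0.301 without). In the cytoplasm it had 432 and 286 against 163 and 191, a change of 0.99 (adjusted p = 0.013 in limma with the block, 0.160 without, and 0.622 at a change of 0.70 without SRSF1 A and the block). The SRSF1 libraries were above both GFP libraries in each fraction, and SRSF1 A and B had the highest cytoplasmic values of all 16 libraries. The pseudogene Hist3h2bb-ps, which lies between Hist3h2ba and Hist3h2a on the opposite strand, had 30.7 and 14.01 scaled reads in whole cells against 4.5 and 8.5 in GFP (1.59, adjusted p = 0.029 with the block, 0.106 without). These 2 of 17 members compare with 11% of all genes in whole cells, and the 2 of 48 in the cytoplasm, Hist3h2ba and Hist1h4i, with 5.87%. Hist1h4i had 22.3 and 19.0 scaled reads in the cytoplasm against 1.2 and 8.8 in GFP (2.23, adjusted p = 0.040 in limma with the block, 0.255 without). In limma without the block 0 members were called in either fraction, against 0.825% and 0.0456% of all genes. DESeq2 on exon-bin reads, also without the block, called Hist3h2ba in the cytoplasm (1.03, adjusted p = 0.0087).

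**Figure D2:**
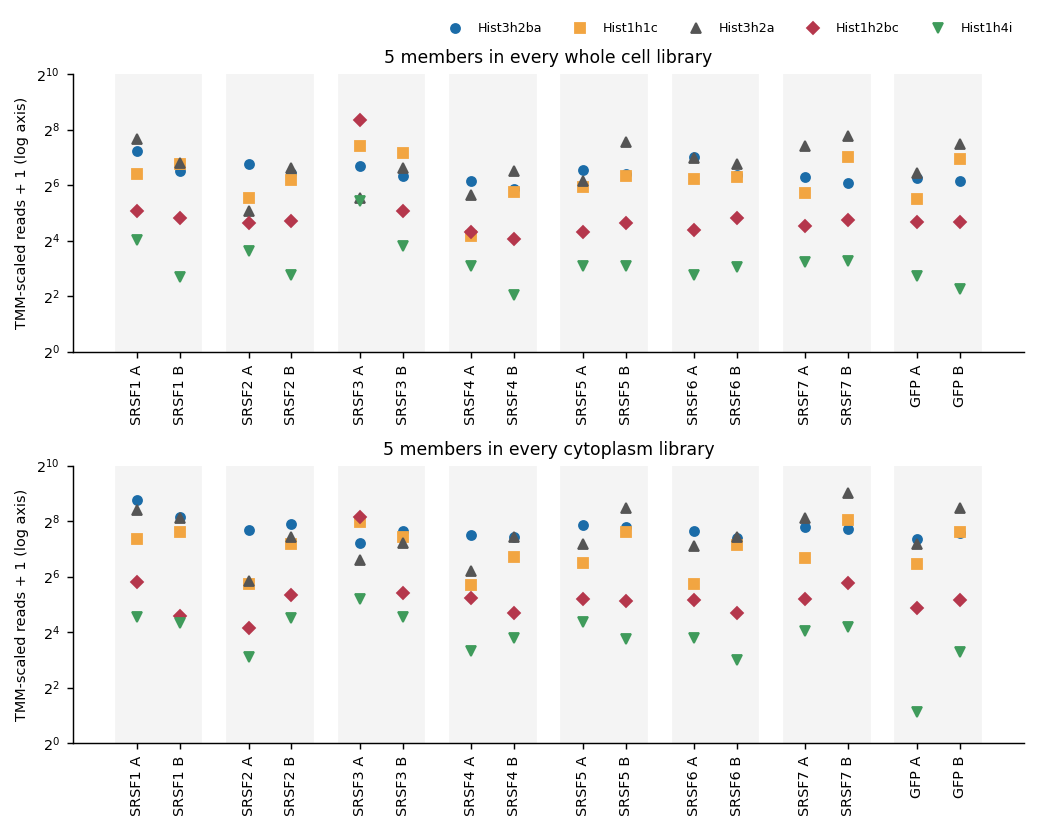
Scaled reads plus 1 (log2 axis) of 5 members in each whole-cell library (above) and cytoplasmic library (below); each symbol is 1 library. Hist1h2bc stands apart in SRSF3 A in both fractions (323 and 285), and Hist3h2ba is highest in SRSF1 A (149 and 432).

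In the cytoplasm 0 of 48 members were called after SRSF3 depletion in limma without the block (0.558% of all genes) and 2 with it (14%). DESeq2 on exon-bin reads without the block called 2 members, among them Hist1h4i (2.55, adjusted p = 0.029). Hist1h4i had 35.4 and 22.5 scaled reads against 1.2 and 8.8 in GFP, a log2 change of 2.67 (adjusted p = 0.0097 with the block, 0.096 without). Hist1h2ai (H2A) had 18.8 and 18.7 against 4.7 and 5.8 (1.67, adjusted p = 0.031 with the block, 0.132 without). Neither member's SRSF3 libraries overlapped with GFP. In whole cells Hist1h2ai had 31.3 in SRSF3 A and 8.4 in B against 3.4 and 2.8, but did not pass the filter.

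For the other knockdowns no member was called in limma, nor by edgeR or DESeq2 on exon-bin reads. In limma in whole cells this was 0 of 17 members without the block for SRSF2 (0.0216% of all genes), SRSF4 (0.0162%), SRSF5 (0% of all genes), SRSF6 (0.0162%) and SRSF7 (0.0323%). With the block it was again 0 for SRSF2 (5.99%), SRSF4 (0.027%), SRSF5 (0.00539%), SRSF6 (0.0593%) and SRSF7 (1.13%). In the cytoplasm it was 0 of 48 without the block for SRSF2 (0%), SRSF4 (0.00569%), SRSF5 (0%), SRSF6 (0%) and SRSF7 (0%), and 0 with it for SRSF2 (1.84%), SRSF4 (0.0171%), SRSF5 (0%), SRSF6 (0.0911%) and SRSF7 (0.074%). The median change of the members tested ran from −0.36 (SRSF4) to 0.76 (SRSF3) in whole cells and from −0.03 (SRSF6) to 0.92 (SRSF7) in the cytoplasm, where the median of all genes tested lay between −0.03 and 0.01 in each comparison. At an unadjusted p under 0.05 without the block, between 0 and 4 members were higher and between 0 and 1 lower in any of the 14 comparisons. The share of all genes at that cut-off is not given here, so these counts describe the members alone. All comparisons share the GFP libraries of their fraction, and GFP A was the lowest of the 16 libraries for 5 of the 27 members above 0 in every whole-cell library and for 10 of the 50 in the cytoplasm. Knockdown libraries were lowest more often, namely SRSF4 A for 7 of the 27 and SRSF2 A for 15 of the 50. The shares over all genes are not given here.

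The abundant members differed widely between libraries. Hist3h2a, which had 86.7 and 180 scaled reads in the whole-cell GFP libraries, ranged from 32.4 in SRSF2 A to 217 in SRSF7 B, and its log2 change ran from −1.14 ± 0.60 (SE) after SRSF2 depletion to 0.61 ± 0.60 after SRSF7 depletion. In the cytoplasm it ranged from 55.8 in SRSF2 A to 512 in SRSF7 B around GFP values of 145 and 354. Its largest cytoplasmic changes were −1.20 ± 0.62 for SRSF2 and −1.01 ± 0.62 for SRSF4. Hist1h1c had 86.2 and 194 in the cytoplasmic GFP libraries, and its changes ran from −0.82 ± 0.67 for SRSF4 to 0.67 ± 0.67 for SRSF3. None of these passed the test in limma, and the knockdown and GFP libraries of Hist3h2a overlapped for all 7 knockdowns in both fractions. Within a letter, however, Hist3h2a was lower than in the GFP library of that letter in both fractions after SRSF2, SRSF3 and SRSF4 depletion. It was not called with the block either, where its lowest adjusted p in limma was 0.104 in whole cells (SRSF3, −0.91 ± 0.42) and 0.072 in the cytoplasm (SRSF2, −1.20 ± 0.33).

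**Figure D3:**
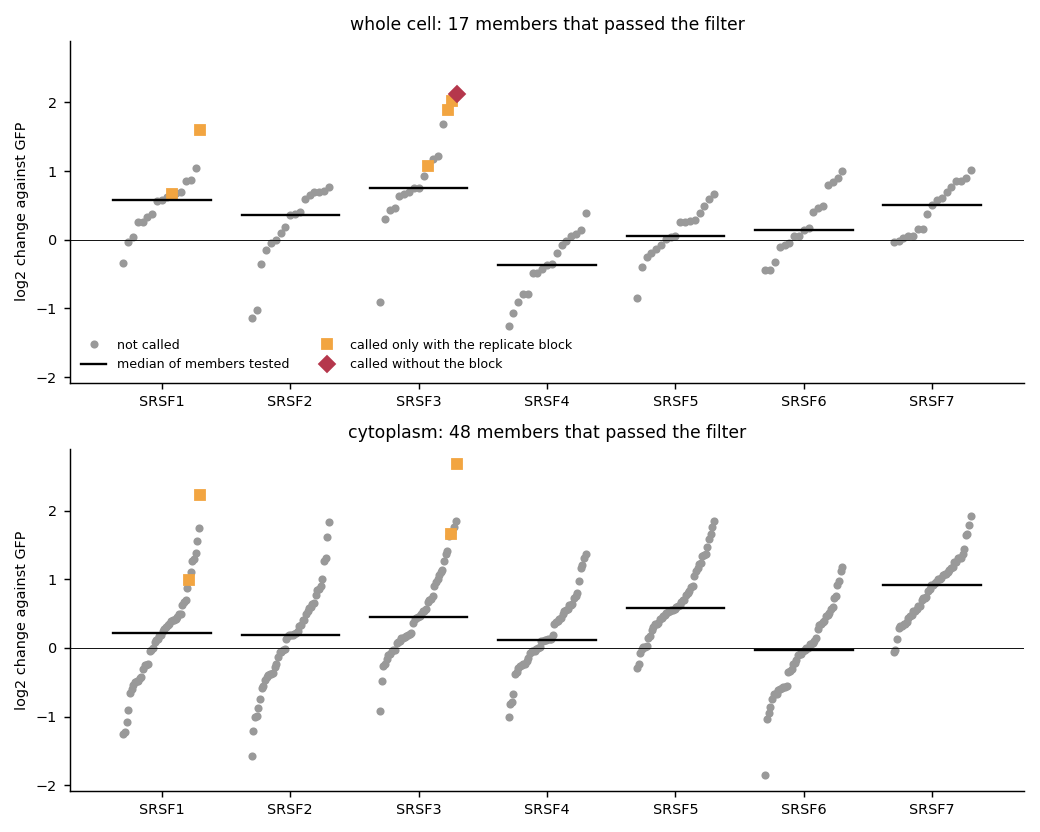
Log2 change against GFP (vertical axis) of each member that passed the filter, by knockdown, in whole cells (above) and cytoplasm (below); points are members ordered by value, bars are medians, and coloured symbols mark calls in limma at an adjusted p under 0.05. After SRSF3 depletion 1 whole-cell point is called without the block; after SRSF7 depletion 46 of 48 cytoplasmic points lie above 0 and none is called.

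The largest single departure among the members was Hist1h2bc in SRSF3 A. It had 323 scaled reads there in whole cells and 285 in the cytoplasm, against 32.7 and 41.2 in SRSF3 B. In GFP it had 24.7 and 24.6 in whole cells and 27.9 and 35.0 in the cytoplasm, and every whole-cell library other than SRSF3 A lay between 15.7 and 32.9. Its log2 change after SRSF3 depletion was 2.03 ± 0.71 (SE) in whole cells (adjusted p = 0.082 without the block) and 0.39 without SRSF3 A (adjusted p = 0.656). On exon-bin reads it was called by edgeR (2.83, adjusted p = 0.028) and by DESeq2 (2.86, 0.0016), and in the cytoplasm limma gave 1.77 (adjusted p = 0.319 without the block, 0.069 with it). The value is therefore that of 1 library, although it recurs in the cytoplasmic library of the same letter. The Srsf3 mRNA was less depleted in whole-cell SRSF3 A than in SRSF3 B, as given above.

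The exon-bin tables show where on Hist1h2bc these reads fell. Its first block (chr13:23684199-23684621, plus strand, mm10, 423 bases) holds the coding sequence, and its later block (chr13:23692176-23692488, 313 bases) is the downstream exon that ends at the AATAAA signal shown above. The later block had 271 reads in whole-cell SRSF3 A against 12 to 31 in the other 15 libraries, and 242 in cytoplasmic SRSF3 A against 12 to 48. The first block had 21 reads in whole-cell SRSF3 A against 1 to 8, and 25 in the cytoplasm against 2 to 24. In GFP the later block also held more reads than the first, with 18 and 24 against 6 and 3 in whole cells. Most reads of Hist1h2bc in these poly(A)+ libraries thus lay in the downstream exon, in all 16 whole-cell libraries and in 14 of 16 cytoplasmic ones.

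The 4 other members whose coding sequence lies in a first block upstream of an annotated intron, Hist2h2bb, Hist1h2br, Hist1h2bq and Hist1h2bp, are all H2B genes too. The later blocks of all 5 had their highest read number in SRSF3 A, in both fractions, a pattern chosen after the values were seen. For Hist2h2bb (later block chr3:96277748-96279001, plus strand, mm10) it was 30 reads against at most 9 elsewhere in whole cells and 17 against at most 3 in the cytoplasm. The other 3 had 4 to 15 reads in whole-cell SRSF3 A against at most 1 to 9 elsewhere, and 2 to 4 in the cytoplasm against at most 1 to 2, which is few. Summed over the 5 members, the later blocks held 328 reads in whole-cell SRSF3 A and 44 in B against 22 and 36 in GFP, and 269 and 53 against 18 and 34 in the cytoplasm.

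In the cytoplasm, the first blocks of these genes followed another order. Summed over the 5, they held 200 reads in cytoplasmic SRSF7 B and 113 in SRSF5 A, above SRSF3 A with 79, and 51 and 60 in GFP. Hist2h2bb alone had 97 first-block reads in cytoplasmic SRSF7 B and 15 in SRSF3 A, the reverse of its downstream exon. In whole cells, by contrast, SRSF3 A was also the highest library for the first blocks. They summed to 63 there and to 45 in SRSF7 B, the next highest, against 11 and 26 in GFP. Of the 5 members, 3 had their highest whole-cell first-block reads in SRSF3 A. The other spliced members are Hist1h2aj, with at most 12 reads in a block, and Hist1h2be. Hist1h2be has its coding sequence in the later block, which was highest in cytoplasmic SRSF7 B (38 reads), and its short upstream first block was highest in SRSF3 A in both fractions (15 and 7 reads).

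**Figure D4:**
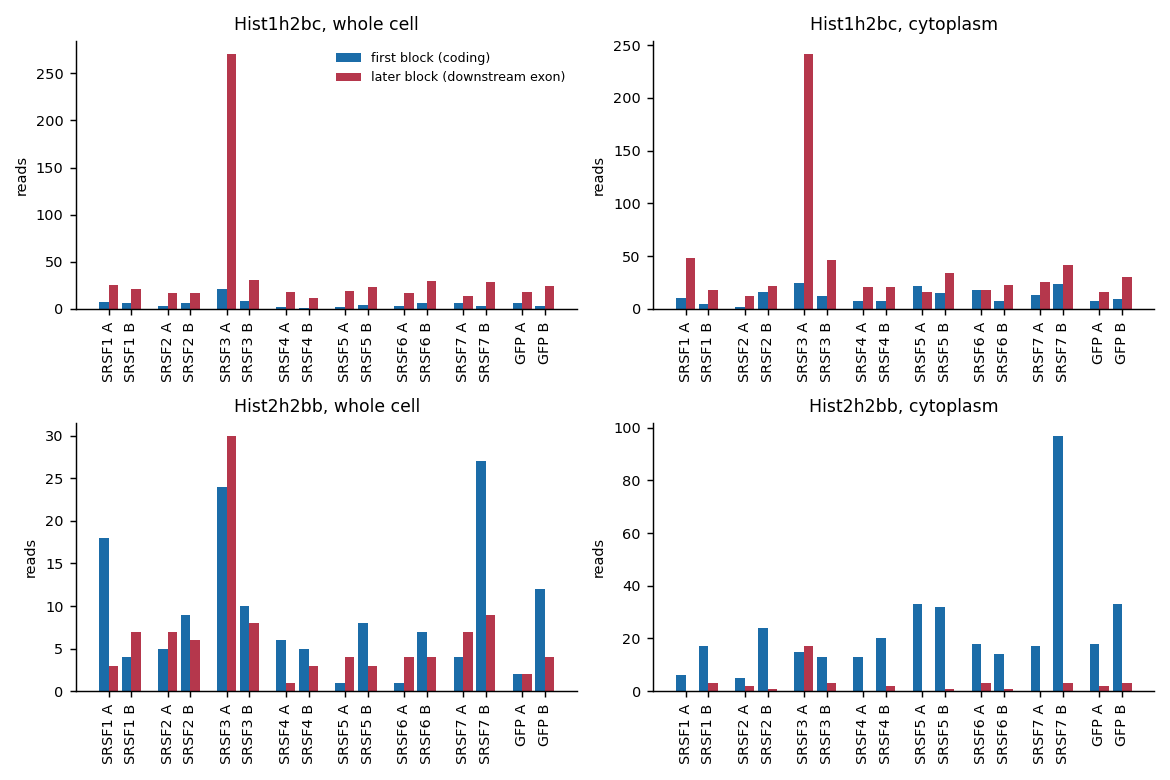
Reads (vertical axes, each panel with its own scale) in the first block, which holds the coding sequence, and in the later block, a downstream exon, of Hist1h2bc and Hist2h2bb in each library. The later block of Hist1h2bc has 271 and 242 reads in SRSF3 A, and the first block of Hist2h2bb has 97 in cytoplasmic SRSF7 B.

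After SRSF7 depletion most members that passed the filter lay above GFP in the cytoplasm, without any of them passing the test. They share the same few libraries, and the filter keeps members that are high in enough libraries, SRSF7 B among them. The counts below are therefore a description and no test. Of 48 members 46 had a positive log2 change, with a median of 0.92, against 45.9% positive and a median of −0.03 over all genes tested. This rested on 1 library, as 32 of 65 members had their highest cytoplasmic value in SRSF7 B (the share of all genes is not given here). Without it, 34 of the 50 members then tested were positive, with a median of 0.32. For SRSF5, 44 of 48 were positive with a median of 0.58, and 37 of 54 with a median of 0.34 without SRSF5 A.

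In the cytoplasm, the 3 libraries in which stem-loop-only members were highest were also the 3 with most RNA that is made without a poly(A) tail. For 8 such RNAs, chosen after the values of the members were seen (Rn7sk, Rmrp, Rpph1, Rny1, Rny3, Vaultrc5, Rnu1a1 and Rnu2-10, which belong to the transcription-control, RNA-processing, Y, vault and spliceosomal RNAs), the summed level was 30.3 RPM in cytoplasmic SRSF7 B, 24.6 in SRSF5 A and 13.6 in SRSF2 B. The other 13 cytoplasmic libraries held 0.216 (SRSF2 A) to 8.46 (SRSF6 A), with GFP at 5.31 and 5.85. The 26 stem-loop-only members summed to 16.1, 12.2 and 8.92 RPM in the same 3 libraries, in the same order, and to their lowest value, 3.25, in SRSF2 A. The other 12 cytoplasmic libraries held 4.09 to 7.85.

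Single members followed this in part. Hist1h4d, with the stem-loop alone, had 57.7 scaled reads in cytoplasmic SRSF7 B and 37.9 in SRSF5 A, against 7.0 and 23.3 in GFP. In SRSF2 B, however, it had 20.8, below GFP B and below SRSF3 B with 34.2. Hist3h2ba, with both, had 212 in SRSF7 B and 230 in SRSF5 A, within the range of the other cytoplasmic libraries. Other members with both were nevertheless highest of the 16 cytoplasmic libraries in SRSF7 B, namely Hist3h2a (512) and Hist1h1c (259), as was the sum of the members with both (30.4 RPM). So was the sum of the members with no annotated sequence after the stop (7.61 RPM). The signal-only members were highest in SRSF3 A (10.0 RPM), and next in SRSF7 B (3.21) and SRSF5 A (2.20). High values in SRSF7 B were thus not particular to the stem-loop-only members. In whole cells the 8 untailed RNAs were highest in SRSF1 A, at 13.6 RPM against 0.769 to 4.16 in the other 15 libraries. The stem-loop-only members held 4.43 RPM in that library, between 4.95 in SRSF3 A and 4.41 in SRSF3 B, whereas the untailed RNAs were next highest in SRSF5 B (4.16) and GFP B (3.45). The part of untailed RNA in the levels of the members was not tested.

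**Figure D5:**
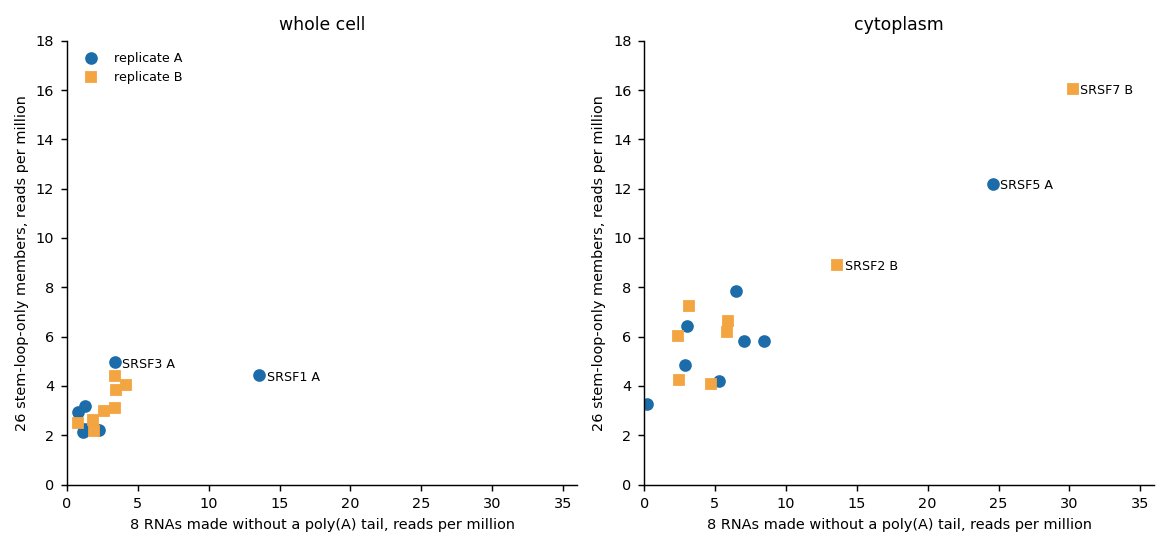
Summed reads in RPM of the 26 stem-loop-only members (vertical axis) against those of 8 RNAs made without a poly(A) tail (horizontal axis); each point is 1 library, whole cell left and cytoplasm right. Cytoplasmic SRSF7 B, SRSF5 A and SRSF2 B are the 3 highest on both axes, and whole-cell SRSF1 A is far to the right.

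No member passed the test for a change of its cytoplasmic level relative to its whole-cell level. In a limma interaction over all 32 libraries, 0 of 45 members tested were called for any knockdown without the block, against 0.0156% of all genes for SRSF1, 0% for SRSF2, 0.0104% for SRSF3, 0.0208% for SRSF4, 0% for SRSF5, 0.0156% for SRSF6 and 0.0156% for SRSF7. With the block it was again 0, against 0.052%, 0%, 0.587%, 0.0208%, 0%, 0.0156% and 0.0156% in that order. At an unadjusted p under 0.05 it was 0 to 3 members higher and 0 to 1 lower per knockdown, counts that stand without the share of all genes. For SRSF3, 15 of 45 members had a positive interaction (median −0.29, all genes −0.04), and for SRSF7 42 of 45 did (median 0.77, all genes −0.03), or 35 of 47 with a median of 0.37 without SRSF7 B.

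Between the fractions, as shares of each table, 57 of the 63 members with reads in both were higher in the cytoplasm. The share of all genes is not given here, so this count is not shown to be particular to the members. In whole cells 55 members averaged under 10 scaled reads. The ratio of the cytoplasmic to the whole-cell sum over the 17 members that passed in both was 1.47 in GFP and ran from 1.17 after SRSF3 depletion to 2.12 after SRSF7 depletion. Within a group the letters differed, with 1.71 and 2.43 for SRSF7 and 1.58 and 1.41 for GFP. The 2 tables were scaled separately by the authors, so no test was made. Hist1h1e had the highest ratio over all libraries of the 17 members, 2.45, and Hist3h2ba had 2.15. Hist4h4, Hist1h2be and Hist2h3c1 were the lowest with 0.290, 0.400 and 0.449. Hist4h4, from the single locus on chromosome 6, had 47.1 and 47.3 scaled reads in the whole-cell GFP libraries and 39.4 to 71.2 over all 16, a far narrower range than Hist3h2a or Hist1h1c, and 8.3 to 28.4 in the cytoplasm. Hist2h3c1 and Hist1h2be are among the members that share bins with other genes.

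The replicates A and B differed in both fractions over all groups, and abundant members were among the genes that differed. In whole cells 5 of 17 members were called for B against A, against 39.2% of all genes, and in the cytoplasm 2 of 48, against 51.9%. Hist1h1c was higher in B by 0.69 ± 0.18 (log2, SE, adjusted p = 0.0057 in limma) in whole cells and 0.90 ± 0.18 (0.00075) in the cytoplasm. Hist3h2a was higher in B by 0.66 ± 0.21 (0.019) and 0.86 ± 0.16 (0.00045). Hist2h3c1 was higher in B in whole cells by 1.94 ± 0.40 (0.0013), from 0.8 to 58.9 scaled reads in A and 32.7 to 61.3 in B. Hist1h2be fell by 0.65 (0.016) and Hist3h2ba fell by 0.35 (0.0083). Markers of pancreas, liver and blood were also higher in some cytoplasmic A libraries, up to 17.3 RPM for the 8 pancreas markers in SRSF5 A against a median of 1.34. The control was among them, with 16.2 (pancreas), 5.41 (liver) and 9.99 RPM (blood) in GFP A. GFP B held 1.33, 0.139 and 0.804 RPM. SRSF3 A held 16.4, 5.58 and 9.65 RPM, and SRSF7 A held 14.7, 4.56 and 8.82. The part of these markers in the members' values was not tested. Testis and muscle markers stayed at or under 9.62 RPM in all 32 libraries, but they too were higher in some cytoplasmic A libraries. Muscle markers were highest in cytoplasmic SRSF5 A, at 9.62 RPM against a median of 6.21, and lowest in SRSF2 A, at 1.73. They had 8.84 RPM in cytoplasmic SRSF3 A and 3.82 in SRSF3 B. Testis markers in the cytoplasm were highest in SRSF3 A, at 2.32 RPM against a median of 0.661.

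Slbp, the stem-loop binding protein, had log2 changes from −0.13 to 0.20 in whole cells and from −0.19 to 0.30 in the cytoplasm, none of them called. Of 22 genes for synthesis and 3′ processing, 2 rose in whole cells after SRSF3 depletion without the block, Srrt (ARS2, a cap-complex partner; 0.95 ± 0.23, adjusted p = 0.024) and Zfp473 (a component of the U7 processing complex; 0.54 ± 0.11, 0.012), against 11.5% of all genes in that comparison. Of the 10 decay genes, Zcchc6 (a terminal uridylyltransferase) rose by 0.79 ± 0.16 (0.013) in the same comparison. Of the 11 replication-independent histone genes tested, H2afj rose by 0.58 ± 0.17 (0.049), and of 8 histone chaperones Asf1b rose by 0.48 ± 0.14 (0.049). None of the 20 S phase genes was called in limma in any knockdown comparison without the block, and their medians in the 14 knockdown comparisons lay between −0.13 and 0.13. In the other 13 knockdown comparisons and in the 7 of the relative cytoplasmic level, 0 genes of these lists were called in limma without the block.

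With the block, the whole-cell SRSF3 comparison, in which 33.2% of all genes were called, gave 7 genes up and 1 down of the 22 processing genes, where Lsm11, a U7-specific Sm-like protein, fell by 0.55 (adjusted p = 0.0011 in limma) and Npat, the activator of histone gene transcription, rose by 0.30 (0.013). Of the 10 decay genes 3 rose there and none fell, of the 11 replication-independent histone genes 3 rose and 4 fell, and of the 8 chaperones 3 rose and 1 fell. In the cytoplasm, against 14% of all genes, 4 of the 22 rose, led by Npat with 1.04 (0.0095), and the decay genes Xrn1 (a 5′ exonuclease; 1.92, 0.0012) and Dcp2 (the decapping enzyme; 1.22, 0.00034) rose as well. Both also rose relative to whole cells (1.66, 0.024, and 1.29, 0.00080), against 0.587% of all genes. After SRSF1 depletion Ncbp2, the small cap-binding subunit, rose by 0.77 (0.00079) in whole cells and 0.85 (0.0025) in the cytoplasm, where 11% and 5.87% of all genes were called. Of the 20 S phase genes, 5 rose after SRSF3 depletion in whole cells with the block, among them Pcna with 0.49 (0.0038).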

How the data were processed

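Mouse P19 poly(A)+ RNA-seq libraries (TruSeq) of 7 knockdowns and GFP in 2 fractions were used, with groups and letters from the labels. The submitters' processing notes name Cufflinks 2.1.1, Bowtie2 2.1.0, TopHat2 in versions 2.0.9 and 2.0.10, cutadapt and CASAVA 1.8.2, with builds mm10 and mm9, without their order or settings. The deposited gene tables hold estimated reads scaled by the authors between libraries of a fraction (a signal, not raw counts, although nearly whole multiples of 1 read: 97.9% to 98.7% of low values within 0.1 in the 32 libraries). The authors also deposited exon-bin read counts (per the file headers, DEXSeq bins) and pooled FPKM values per group. Columns with the authors' own fold changes and p-values from Cuffdiff, DEXSeq and MISO were not used.

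Gene values were scaled by TMM (edgeR 4.0.16), filtered with filterByExpr, taken as log2(value + 1), and tested with limma 3.58.1 (eBayes with trend, Benjamini-Hochberg over all genes tested, threshold 0.05) on the 16 libraries of a fraction; the interaction used all 32. Fold changes are on that scale and understate changes of low genes. The letters were used as a block in a second fit. Deviations from group means of same-lettered libraries correlated in all 28 pairs of groups (Spearman 0.238 to 0.814 in whole cells, 0.449 to 0.827 in the cytoplasm), so the letters pair the libraries. The edgeR and DESeq2 1.42.0 fits used exon-bin reads, since the gene tables did not give whole reads throughout, and left out the 5 members that share bins. In the alternatives, the edgeR fit with the block, leaving out libraries from the sums and sums without spliced members were chosen after seeing the data, as was the list of 8 untailed RNAs. The fits were tested on simulated reads of genes above a minimum level, without a shared effect of the replicate letter. That test does not cover the scarcest members or the pairing by letter.

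Members, gene lists and tests were chosen with earlier results of these data known. Named were members called in either fit, the 6 highest in GFP with the highest of each class, members averaging at least 100 scaled reads with the largest changes, and spliced members that passed; members shown for their exon blocks or as examples of untailed RNA were added after their values were seen. Sequences and 3′ ends come from GENCODE vM1 (mm9) by gene ID, coordinates from the exon bins (mm10), and Hist2h3c1 has no bins of its own there.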

Additional observations from a re-analysis of the deposited data

How the results depend on the processing

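Counts of called members depended on the fit. With the replicate block they were 2 (whole-cell SRSF1), 4 (whole-cell SRSF3), 2 (cytoplasmic SRSF1) and 2 (cytoplasmic SRSF3), where the fit without it gave 0, 1, 0 and 0, and it changed no other count of called members. On exon-bin reads, edgeR gave 2 for whole-cell SRSF3 and DESeq2 gave 2, 1 and 2 for whole-cell SRSF3, cytoplasmic SRSF1 and cytoplasmic SRSF3, while edgeR with the block, added after seeing the data, gave 2, 4, 1 and 3 in the first order. For whole-cell SRSF3 the count was 0 with comparison libraries only and 0 with limma on exon-bin reads, and 0 to 6 when single libraries were left out, 6 without SRSF3 B. For cytoplasmic SRSF3 it was 0 to 1. B against A in whole cells gave 3 with no filter, 3 in edgeR and 2 in DESeq2, and in the cytoplasm 1 in edgeR, 1 in DESeq2 and 2 to 4 when a knockdown was left out.

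Called genes among the processing and decay lists were 3 for whole-cell SRSF1 with the block and 3 in edgeR with the block. For whole-cell SRSF2 they were 2, 2 and, in DESeq2, 1. For whole-cell SRSF3 they were 11 with the block, 10 in edgeR with the block, 1 with comparison libraries only, 1 on exon-bin reads and 0 to 7 without single libraries. For cytoplasmic SRSF1 they were 2 and 2 with the block in limma and edgeR. For cytoplasmic SRSF3 they were 6, 5, 1 in edgeR and 2 in DESeq2.

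Without single libraries, the log2 difference of the summed members from GFP in whole cells ran from 0.022 to 0.84 (SRSF1), −0.55 to 0.26 (SRSF2), 0.36 to 1.24 (SRSF3), −0.82 to −0.0097 (SRSF4), −0.30 to 0.52 (SRSF5), −0.27 to 0.55 (SRSF6) and −0.17 to 0.65 (SRSF7). In the cytoplasm it ran from 0.14 to 0.87 (SRSF1), −0.70 to 0.34 (SRSF2), 0.038 to 0.77 (SRSF3), −0.54 to 0.19 (SRSF4), 0.080 to 0.81 (SRSF5), −0.55 to 0.18 (SRSF6) and 0.15 to 1.17 (SRSF7). The cytoplasm to whole cell ratio with TMM over both tables was 2.00 (SRSF1), 2.09 (SRSF2), 1.42 (SRSF3), 2.28 (SRSF4), 1.56 (SRSF6), 2.86 (SRSF7) and 1.94 (GFP). No member reached 10 RPM in both fractions, so that alternative gave no value. Of 462 changes of single members under alternatives, 428 stayed on their side of the threshold, 23 passed it only under the alternative and 11 no longer passed it, while 15 took the other sign, 0 of them among calls. The causes were not tested, and depth limited the 44 to 55 members under 10 reads a library.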
